A study of Sus scrofa with 6 samples.

Results

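The genes described here encode the lysosome of porcine embryos together with its proton pump, the vacuolar-type ATPase (V-ATPase). They were taken as the rows of the deposited gene table that carry the KEGG lysosome pathway, 114 genes, and all rows whose gene name begins with ATP6V, 19 genes. Because 8 genes met both conditions, 125 of 24358 genes were members, and 98 of the 125 were among the 10639 genes that entered the test (FPKM, fragments scaled by transcript length and by library size, 1 or more in 2 or more of the 6 libraries). The 27 other members stayed below that level, the highest of them *AP4M1* with 3.09 FPKM in 1 embryo, and 3 of them had a count of 0 in every embryo.

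RNA-sequencing was performed on single pig (*Sus scrofa*) embryos, 3 injected with *CARM1* siRNA (*CARM1* KD) and 3 that received no injection (control). *CARM1* encodes an arginine methyltransferase that modifies histones and coactivators. The study's methods describe siRNA against 3 sites, injected at about 10 pl and 50 μM into MII oocytes, and collection of single embryos at day 5, which the labels call blastocysts. A negative control siRNA was part of the study, but the sequenced controls are labelled as not injected, so injection and knockdown cannot be told apart in these libraries. Sex, litter and the way embryos were activated or fertilized are not given in the sources used here, so p-values measure the spread between these single embryos.

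Lysosomes are acidic organelles in which proteins, glycans, lipids and nucleic acids are broken down. The V-ATPase acidifies them: its cytosolic V1 sector hydrolyses ATP and turns a rotor, and its membrane V0 sector carries protons across the membrane. Newly made hydrolases are tagged with mannose 6-phosphate in the Golgi, handed over by mannose 6-phosphate receptors and carried in clathrin and adaptor coated vesicles. In early mammalian embryos, lysosomes and autophagy take part in the clearance of maternal proteins and organelles after fertilization, and endocytosis and acidification are prominent in the polarized outer epithelium, the trophectoderm.

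The libraries held 36324385 to 40080850 gene counts in *CARM1* KD embryos and 26341924 to 41727594 in control embryos. The siRNA target *CARM1* was at 0.130, 0.150 and 0.274 FPKM in *CARM1* KD embryos and at 1.96, 4.54 and 1.26 FPKM in control embryos, lower in each *CARM1* KD than in each control embryo. *CARM1* KD 3 and control 2 stood apart from the other embryos. The summed FPKM of 12 oocyte genes was 312, 31.3 and 1842 in *CARM1* KD 1 to 3 and 779, 4217 and 133 in control 1 to 3, whereas the sum of 7 trophectoderm genes was 163, 348 and 49.6 in *CARM1* KD and 98.6, 5.0 and 131 in control embryos. Single trophectoderm genes differed in this. The keratin *KRT18* was at 68.9, 165 and 0 FPKM in *CARM1* KD and at 30.3, 0 and 39.2 FPKM in control embryos. The factor *TFAP2C* was at 41.2, 27.9 and 35.1 FPKM in *CARM1* KD and at 50.1, 0.59 and 49.7 FPKM in control embryos, thus low in control 2 alone. *TEAD4* was highest in *CARM1* KD 3, at 14.5 FPKM, and *CDX2* reached at most 0.445 FPKM in any embryo, so that the blastocyst label was met in part. Mitochondrial genes took 46.0% of counts in control 2, against 14.5% to 23.9% elsewhere. Genes of blood cells and macrophages, which are rich in lysosomes, summed to 3.19 to 34.7 FPKM in *CARM1* KD and 7.14 to 15.4 FPKM in control embryos. The highest of them were *AIF1*, at 32.5, 25.0 and 1.22 FPKM in *CARM1* KD and 12.6, 0.098 and 6.37 FPKM in control embryos, and *CD14*, at 1.16, 1.11 and 1.44 FPKM in *CARM1* KD and 1.75, 6.92 and 3.90 FPKM in control embryos. *CD163* was at 0 in all 6, and *PTPRC*, *CSF1R* and *TYROBP* reached at most 0.13, 0.41 and 0.35 FPKM in any embryo. *LYZ* and *HBB* reached at most 2.36 and 1.24 FPKM. The part of such cells in the results was not tested. Summed FPKM of cumulus and granulosa genes was at most 1.42 and of sperm genes at most 1.99, that of inner cell mass genes 89.7 to 204 in *CARM1* KD and 78.9 to 135 in control embryos, and that of primitive endoderm genes 14 to 54.8 in *CARM1* KD and 9.75 to 23.0 in control embryos. The Y-linked *EIF1AY* was read only in *CARM1* KD 1 and 2, at 14 and 7.26 FPKM, and in no control embryo. Embryo sex, and whether embryos were fertilized or activated without sperm, therefore cannot be fully told apart from treatment. In such whole-embryo libraries, fewer cells of a type and less RNA per cell cannot be told apart.

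Taken as a group, the lysosome and V-ATPase genes were not separated by treatment. No tested member passed an adjusted p under 0.05 in edgeR's quasi-likelihood test, against 0% of all tested genes. None passed an unadjusted p under 0.05 in either direction, where 0.338% of all tested genes did so as higher and 0.348% as lower in *CARM1* KD. DESeq2 called no member at an adjusted p under 0.05, against 0.113% of all genes, and gave no p-value for *IDS* and *LAPTM5*. At an unadjusted p under 0.05 it gave 0 members higher and 2 lower (*LAPTM4B* and *HGSNAT*), where the background was 0.808% higher and 1.01% lower. Fitted log2 fold changes were above 0 for 54 of 98 members (55.1%) and for 55.3% of all tested genes, with medians of 0.07 and 0.10. The common biological coefficient of variation was 1.12, which leaves large differences undetected with 3 embryos per group.

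What differed instead was the embryo. For 38 of 98 tested members (38.8%) the 2 lowest values were those of *CARM1* KD 3 and control 2, a share that was 19.8% over all tested genes. The reverse, the 2 highest values in those embryos, held for 11 members (11.2%), against 24.1% of all tested genes. Control 2 held the lowest value, ties included, for 55 members (56.1%, background 47.9%) and had a count of 0 for 24 (24.5%, background 18.3%). A range between embryos was common to most genes: 48 members (49.0%) spanned at least 10-fold or reached 0, against 58.0% of all tested genes, and 15 (15.3%) stayed within 3-fold, against 9.47%. These shares are descriptions without a test, and the part that depth, mitochondrial share or oocyte and trophectoderm RNA had in them was not tested.

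**Figure D1:**
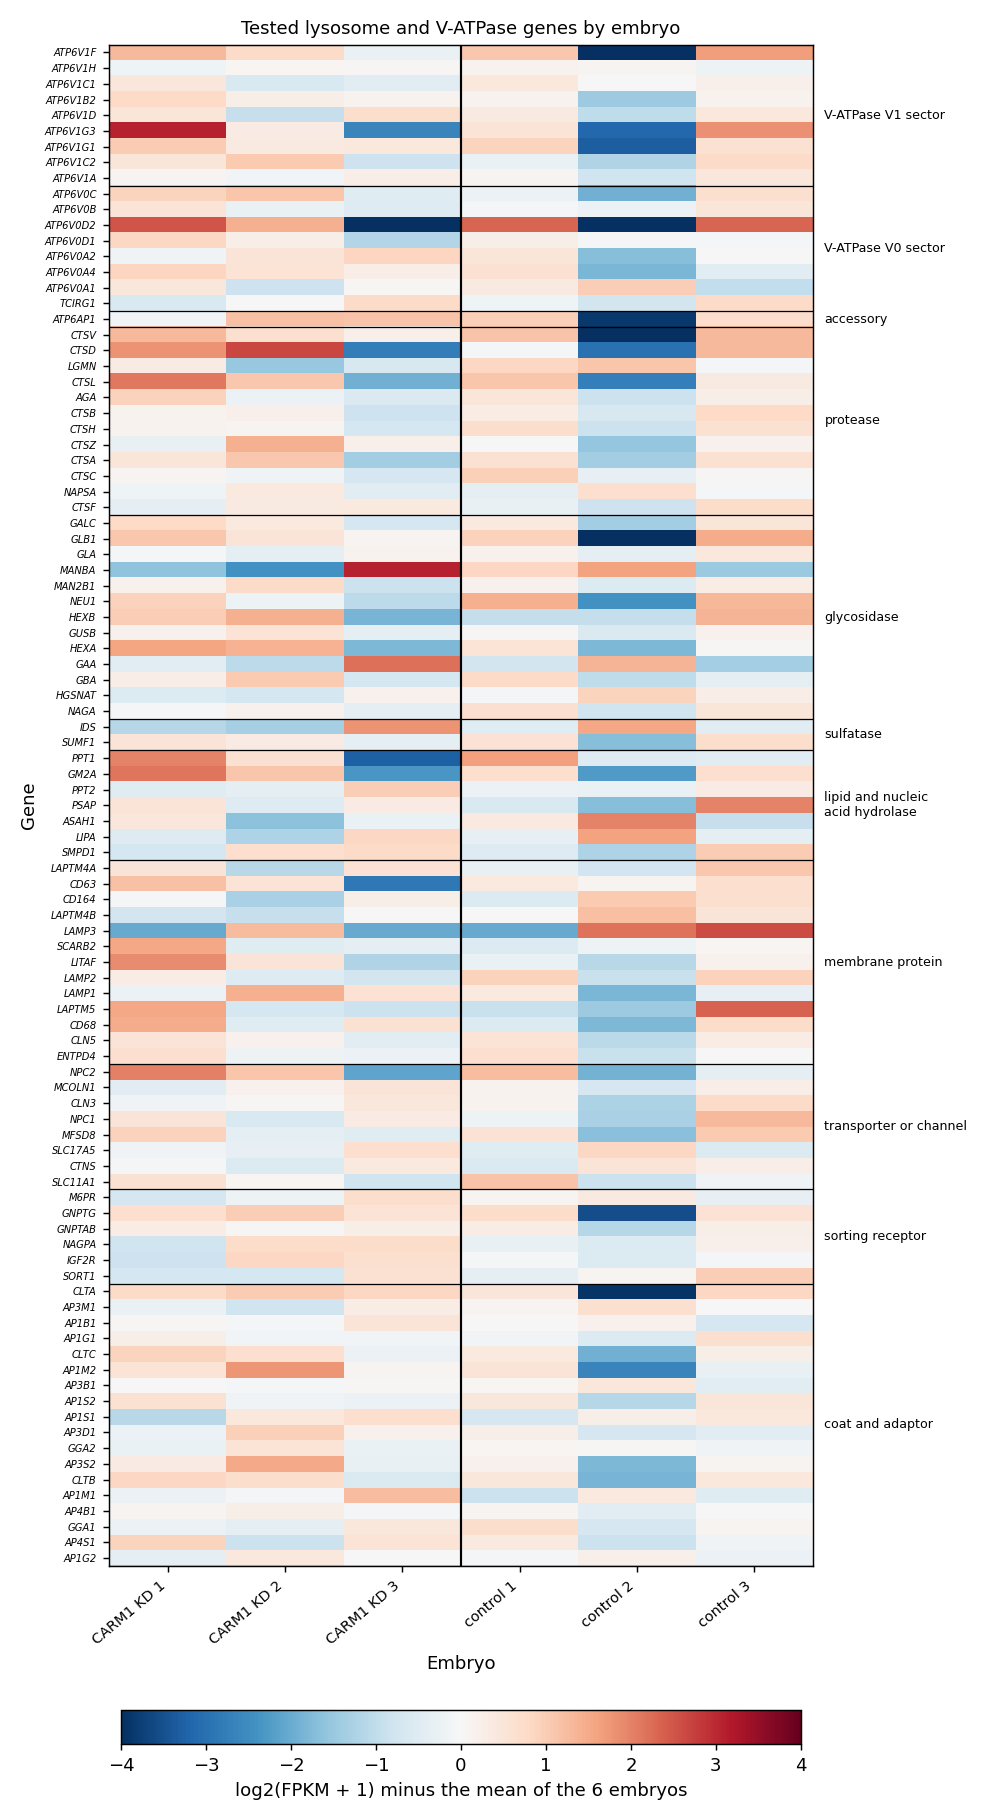
Level of the tested members reported here (rows, grouped by role) in each of the 6 embryos (columns, *CARM1* KD left of the line and control right), as log2(FPKM + 1) minus the mean of the 6 embryos. Colours stop at 4 on either side. Blue marks levels below that mean and red levels above it. *CARM1* KD 3 and control 2 held the 2 lowest values for 38 of 98 members, while *MANBA*, *GAA* and *IDS* were red in both. Control 2 held the lowest value for 55 members and *CARM1* KD 3 for 15, ties included in both.

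The V1 sector of the V-ATPase, with its catalytic head and stalks, was covered by 12 member genes, among them *ATP6V1FNB*, which is no subunit. Of these, 9 were tested, and their median log2 fold change was 0.02. *ATP6V1H*, the regulatory H subunit, was the most even of the tested members. It was at 61.3, 72.3 and 70.4 FPKM in *CARM1* KD embryos and at 76.3, 74.0 and 60.1 FPKM in control embryos, a range of 1.27-fold that took in both unusual embryos. Its leading transcript took at least 94.6% of the counts of the gene in every embryo. The ATP-binding subunit A, *ATP6V1A*, was at 9.94, 8.39 and 11.2 FPKM in *CARM1* KD and at 9.98, 4.86 and 13.1 FPKM in control embryos. RNA of its partner, the B subunit, came almost entirely from *ATP6V1B2*, at 106, 71.8 and 66.4 FPKM in *CARM1* KD and at 66.4, 21.6 and 67.4 FPKM in control embryos. The kidney and epididymis type *ATP6V1B1* was at most 0.73 FPKM in any embryo. The lowest share of *ATP6V1B2* in the summed FPKM of the B genes was 98.99%, in *CARM1* KD 2.

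The stalk subunits differed from gene to gene. *ATP6V1F* was the most abundant V1 gene, at 337, 233 and 113 FPKM in *CARM1* KD embryos and at 288, 4.94 and 441 FPKM in control embryos, so that control 2 was far below the other 5. *ATP6V1D*, a part of the rotor, was at 42.7, 15.5 and 50.7 FPKM in *CARM1* KD and at 39.1, 14.4 and 41.3 FPKM in control embryos, with its low values in *CARM1* KD 2 and control 2. *ATP6V1E1*, which the table does not name and which therefore lies outside the rule, was at 140, 99.2 and 68.5 FPKM in *CARM1* KD and at 108, 10.7 and 89.8 FPKM in control embryos. In each of these genes the groups overlapped. The testis type *ATP6V1E2* was read in 1 embryo only, *CARM1* KD 1, at 0.76 FPKM. There *ATP6V1E1* still took 99.46% of the summed FPKM of the E genes.

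*ATP6V1FNB*, a small gene next to *ATP6V1F*, was the one member with no count in one group and at least 10 counts in 2 or more embryos of the other. It had 0 counts in the 3 *CARM1* KD embryos and 18, 5 and 15 counts in the control embryos. Taking 3 counts in the whole group as the floor, it was at least 15-fold lower in *CARM1* KD, a bound that covers counting error only. At no more than 0.49 FPKM in any embryo it stayed below the level for testing, and it overlaps a gene on the other strand. How many of all genes met the same rule was not counted, so the pattern has no background share.

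The V0 sector contributed 8 member genes, all tested, with a median log2 fold change of -0.01. The proteolipid *ATP6V0C*, which forms the proton-carrying ring, was the most abundant member (chromosome 3, 39532605 to 39538653, in coordinates that overlap the gene of that name in Sscrofa11.1). It was at 550, 645 and 211 FPKM in *CARM1* KD embryos and at 249, 77.4 and 461 FPKM in control embryos, and the groups overlapped although its mean was 469 ± 228 FPKM in *CARM1* KD and 262 ± 192 FPKM in control (SD, n = 3 each). Processed copies of this short gene are known in mammals, so that its counts are less certain than those of other subunits. The second ring protein *ATP6V0B* was much more even, at 279, 162 and 136 FPKM in *CARM1* KD and at 187, 166 and 272 FPKM in control embryos. The small subunit gene *ATP6V0E1*, outside the rule, shared the low value of control 2, with 551, 293 and 320 FPKM in *CARM1* KD and 367, 34.6 and 646 FPKM in control embryos.

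Of the accessory proteins, which assemble the pump, the X-linked *ATP6AP1* was at 12.5, 31.5 and 31.5 FPKM in *CARM1* KD and at 27.4, 0 and 22.6 FPKM in control embryos. *ATP6AP2*, the prorenin receptor, lies outside the rule and behaved differently. It was at 45.6, 8.45 and 22.2 FPKM in *CARM1* KD and at 31.2, 41.9 and 36.7 FPKM in control embryos, thus well read in the embryo that lacked *ATP6AP1*. A related gene, *ATP6AP1L*, was at 9.27, 2.29 and 15.5 FPKM in *CARM1* KD and at 7.84, 6.36 and 8.90 FPKM in control embryos.

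**Figure D2:**
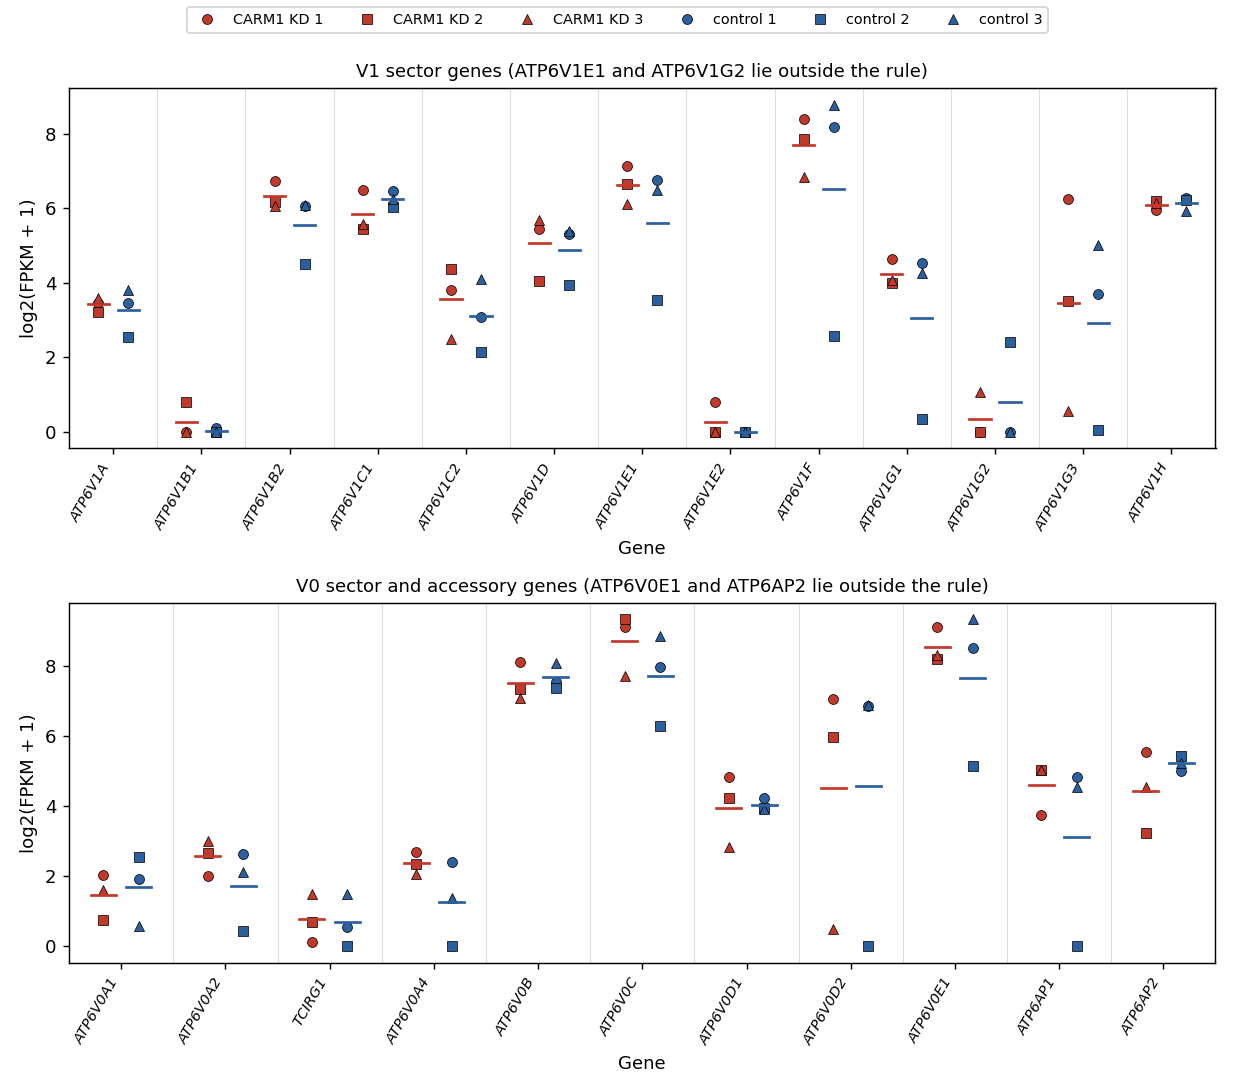
Levels of the V-ATPase genes as log2(FPKM + 1), with V1 genes above and V0 and accessory genes below. Red symbols are the 3 *CARM1* KD embryos and blue symbols the 3 control embryos, with one shape per embryo number and a line at each group's mean of log2 values. *ATP6V1H* is flat at 60.1 to 76.3 FPKM, while *ATP6V0D2* and *ATP6V1G3* are near 0 in *CARM1* KD 3 (triangle) and control 2 (blue square).

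Several V-ATPase subunits are encoded by more than one gene, and the embryos differed in which of these genes was read. The tissue names of the types are those known from humans and mice. Shares are given of the summed FPKM of the genes of a subunit, thus of RNA and not of protein. The d subunit, which couples the ring to the rotor, has the ubiquitous *ATP6V0D1* and *ATP6V0D2*, known in mice from osteoclasts and kidney. *ATP6V0D2* (chromosome 4, 50694189 to 50749378) was at 133, 61.5 and 0.42 FPKM in *CARM1* KD embryos and at 116, 0 and 118 FPKM in control embryos. *ATP6V0D1* was at 27.3, 17.7 and 6.08 FPKM in *CARM1* KD and at 17.9, 14.4 and 14.1 FPKM in control embryos. *ATP6V0D2* thus made up 83.0%, 77.6% and 6.50% of the summed FPKM of the d genes in *CARM1* KD and 86.6%, 0% and 89.3% in control embryos. It was the main d gene in 4 embryos and nearly or wholly missing in *CARM1* KD 3 and control 2. The mean share was 55.7% ± 42.7 in *CARM1* KD and 58.6% ± 50.8 in control (SD, n = 3 each; two-sided exact permutation p = 0.80, smallest possible 0.10).

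The G subunit of the peripheral stalk showed a similar split among 3 genes. *ATP6V1G3*, known from kidney, was at 76.0, 10.5 and 0.47 FPKM in *CARM1* KD and at 12.1, 0.04 and 31.5 FPKM in control embryos. The ubiquitous *ATP6V1G1* was at 24.2, 15 and 15.9 FPKM in *CARM1* KD and at 22.1, 0.27 and 18.1 FPKM in control embryos. The brain type *ATP6V1G2*, outside the rule, was read in the unusual pair alone, at 1.11 FPKM in *CARM1* KD 3 and 4.32 FPKM in control 2. It made up 93.3% of the summed FPKM of the G genes in control 2, where *ATP6V1G1* made up 5.90% and *ATP6V1G3* 0.83%. None of the 3 genes exceeded 4.32 FPKM in that embryo. Exact permutation p-values for the shares (n = 3 each) were 0.50 for *ATP6V1G1*, 1.0 for *ATP6V1G2* and 0.70 for *ATP6V1G3*.

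For the membrane-spanning a subunit, which directs the pump to its compartment, 4 genes were read at low levels. *ATP6V0A1*, the type of neurons, was at 3.10, 0.67 and 2.04 FPKM in *CARM1* KD and at 2.77, 4.87 and 0.49 FPKM in control embryos. *ATP6V0A2*, the Golgi and endosome type, was at 3.05, 5.39 and 7.09 FPKM in *CARM1* KD and at 5.20, 0.35 and 3.34 FPKM in control embryos. The renal type *ATP6V0A4* was at 5.42, 4.12 and 3.21 FPKM in *CARM1* KD and at 4.35, 0 and 1.59 FPKM in control embryos. Control 2 was the exception again, with 93.3% of the summed FPKM of its a genes from *ATP6V0A1*, against 6.23% to 26.6% in the other 5. *TCIRG1*, the osteoclast and lysosome type, was at 0.09, 0.63 and 1.85 FPKM in *CARM1* KD and at 0.47, 0 and 1.83 FPKM in control embryos. Of these shares, that of *ATP6V0A4* had the lowest exact permutation p, 0.20 (n = 3 each), with 46.5%, 38.1% and 22.6% in *CARM1* KD and 34.0%, 0% and 21.9% in control embryos, and the groups overlapped.

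The C subunit, which clamps V1 to V0, was steadier. *ATP6V1C1* was at 88.9, 42.8 and 47.4 FPKM in *CARM1* KD and at 88.1, 64.4 and 75.2 FPKM in control embryos. *ATP6V1C2* was at 13.2, 19.9 and 4.63 FPKM in *CARM1* KD and at 7.44, 3.40 and 16.1 FPKM in control embryos. *ATP6V1C2* thus held 12.9%, 31.7% and 8.90% of the summed FPKM of the C genes in *CARM1* KD and 7.78%, 5.02% and 17.6% in control embryos (two-sided exact permutation p = 0.50, n = 3 each). *ATP6V1C1* was the main C gene in all 6 embryos. The shares of 11 genes in 4 subunits were tested, all with a Benjamini-Hochberg adjusted p of at least 0.98, and with a smallest possible raw p of 0.10 no such test could have passed 0.05.

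**Figure D3:**
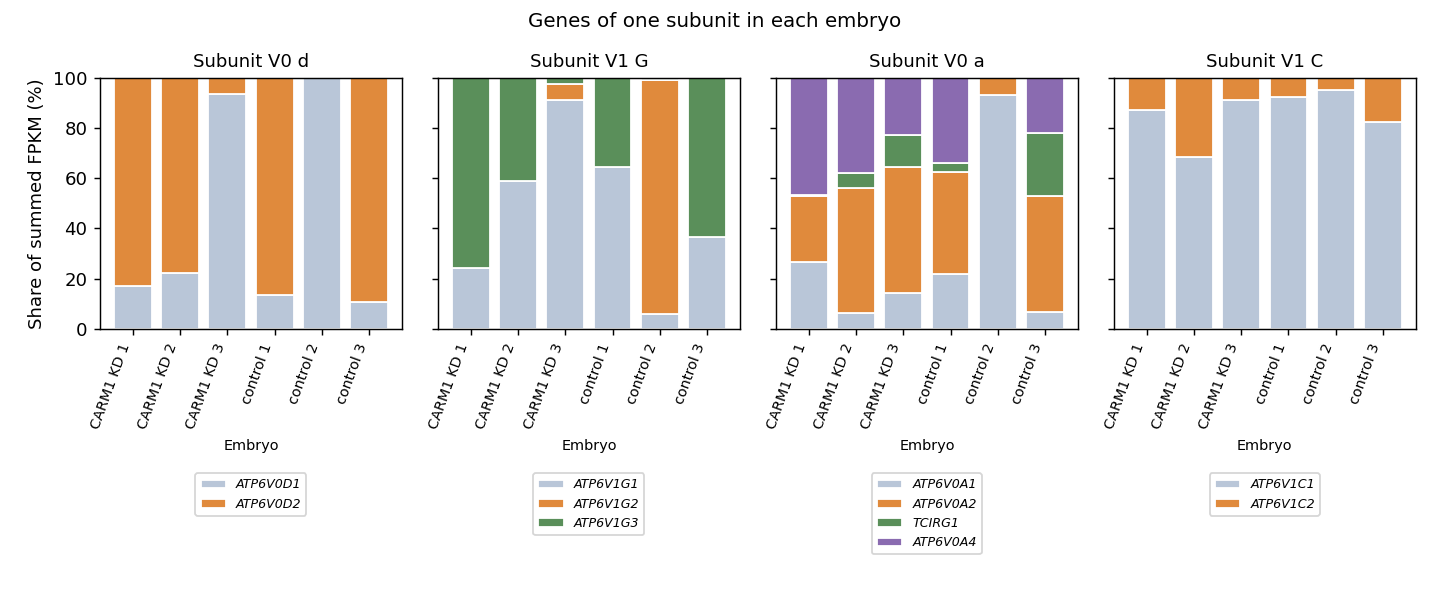
Share of the summed FPKM (vertical axis, percent) that each gene of a subunit took in each embryo, for the V-ATPase subunits d, G, a and C, with the 3 *CARM1* KD bars left of the 3 control bars. *ATP6V0D2* took 77.6% to 89.3% of subunit d in 4 embryos, 6.50% in *CARM1* KD 3 and 0% in control 2.

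Lysosomal proteases were among the members that were low in both unusual embryos. Of 12 tested genes in this group, 8 had their 2 lowest values in *CARM1* KD 3 and control 2. The aspartic protease cathepsin D, *CTSD* (chromosome 2, 1184804 to 1198471), was at 26.5, 49.0 and 0.15 FPKM in *CARM1* KD embryos and at 6.65, 0 and 18.1 FPKM in control embryos. The most abundant protease, the cysteine cathepsin *CTSV*, was at 59.2, 37.2 and 27.3 FPKM in *CARM1* KD and at 52.9, 0 and 59.2 FPKM in control embryos. Its close relative *CTSL*, named after its values were seen, was at 27.6, 12.8 and 0.76 FPKM in *CARM1* KD and at 13.4, 0 and 7.42 FPKM in control embryos. Reads of these similar genes may have been split by the counting, so their ratio is uncertain. Legumain, *LGMN*, which cleaves after asparagine and activates cathepsins, did the opposite in control 2. It was at 15.3, 3.46 and 7.20 FPKM in *CARM1* KD and at 21.8, 26.6 and 11.2 FPKM in control embryos.

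The enzymes that remove sugars included both patterns. *GALC*, which cleaves galactosylceramide, was the most abundant of them at 62.4, 47.3 and 21.9 FPKM in *CARM1* KD and at 47.4, 13.1 and 51.0 FPKM in control embryos. The beta-galactosidase *GLB1* was at 46.4, 30.9 and 23.4 FPKM in *CARM1* KD and at 41.5, 0.29 and 61.8 FPKM in control embryos. Both had their low values in *CARM1* KD 3 and control 2, as did 8 of 13 tested genes of this group. The 13 include the acetyltransferase *HGSNAT*, which was placed in this group. *GLA*, the X-linked alpha-galactosidase A, was even instead, at 21.7, 16.9 and 24.8 FPKM in *CARM1* KD and at 25.5, 17.3 and 30.2 FPKM in control embryos.

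The beta-mannosidase gene *MANBA* (chromosome 8, 118251168 to 118409553) and the acid alpha-glucosidase gene *GAA*, both named after their values were seen, were high in the unusual pair. *MANBA* was at 1.65, 0.50 and 66.4 FPKM in *CARM1* KD embryos and at 13.2, 23.5 and 1.90 FPKM in control embryos. *GAA*, which degrades glycogen, was at 0.88, 0.25 and 10.8 FPKM in *CARM1* KD and at 0.53, 5.6 and 0 FPKM in control embryos. The highest *MANBA* and *GAA* values thus stood in the same *CARM1* KD embryo in which *CTSD* was near 0. *MANBA* overlaps *NFKB1* in the table, as 48 tested members overlap some other gene, 37 of them one on the other strand. Counting by strand is not stated in the sources used here, so these levels may hold reads of the neighbour.

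A high level in the unusual pair was also seen among the sulfatases. The X-linked iduronate sulfatase *IDS* was at 1.47, 1.16 and 18.1 FPKM in *CARM1* KD and at 2.89, 15 and 3.10 FPKM in control embryos. Its 2 highest embryos were *CARM1* KD 3 and control 2. *SUMF1*, the enzyme that activates sulfatases by converting a cysteine of their active site, had the reverse order, at 3.64, 3.06 and 1.48 FPKM in *CARM1* KD and 3.85, 0 and 4.25 FPKM in control embryos. Only 3 of the 8 members placed in this group were tested.

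Among hydrolases of lipids and nucleic acids, 7 of 12 members were tested. The palmitoyl-protein thioesterase *PPT1*, which strips fatty acids from proteins, was at 81.8, 30.7 and 1.15 FPKM in *CARM1* KD and at 63.5, 13.4 and 14.1 FPKM in control embryos. *GM2A*, the activator that presents ganglioside GM2 to its hydrolase, was at 61.1, 29.1 and 1.78 FPKM in *CARM1* KD and at 21.3, 1.95 and 21.4 FPKM in control embryos. The unusual embryos were lowest for both. *PPT2* was more even, at 8.57, 9.27 and 25.5 FPKM in *CARM1* KD and at 10.3, 10.1 and 15.8 FPKM in control embryos. The acid lipase *LIPA*, named after its values were seen, was high in the pair, at 1.06, 0.24 and 4.16 FPKM in *CARM1* KD and 1.35, 7.90 and 1.26 FPKM in control embryos.

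**Figure D4:**
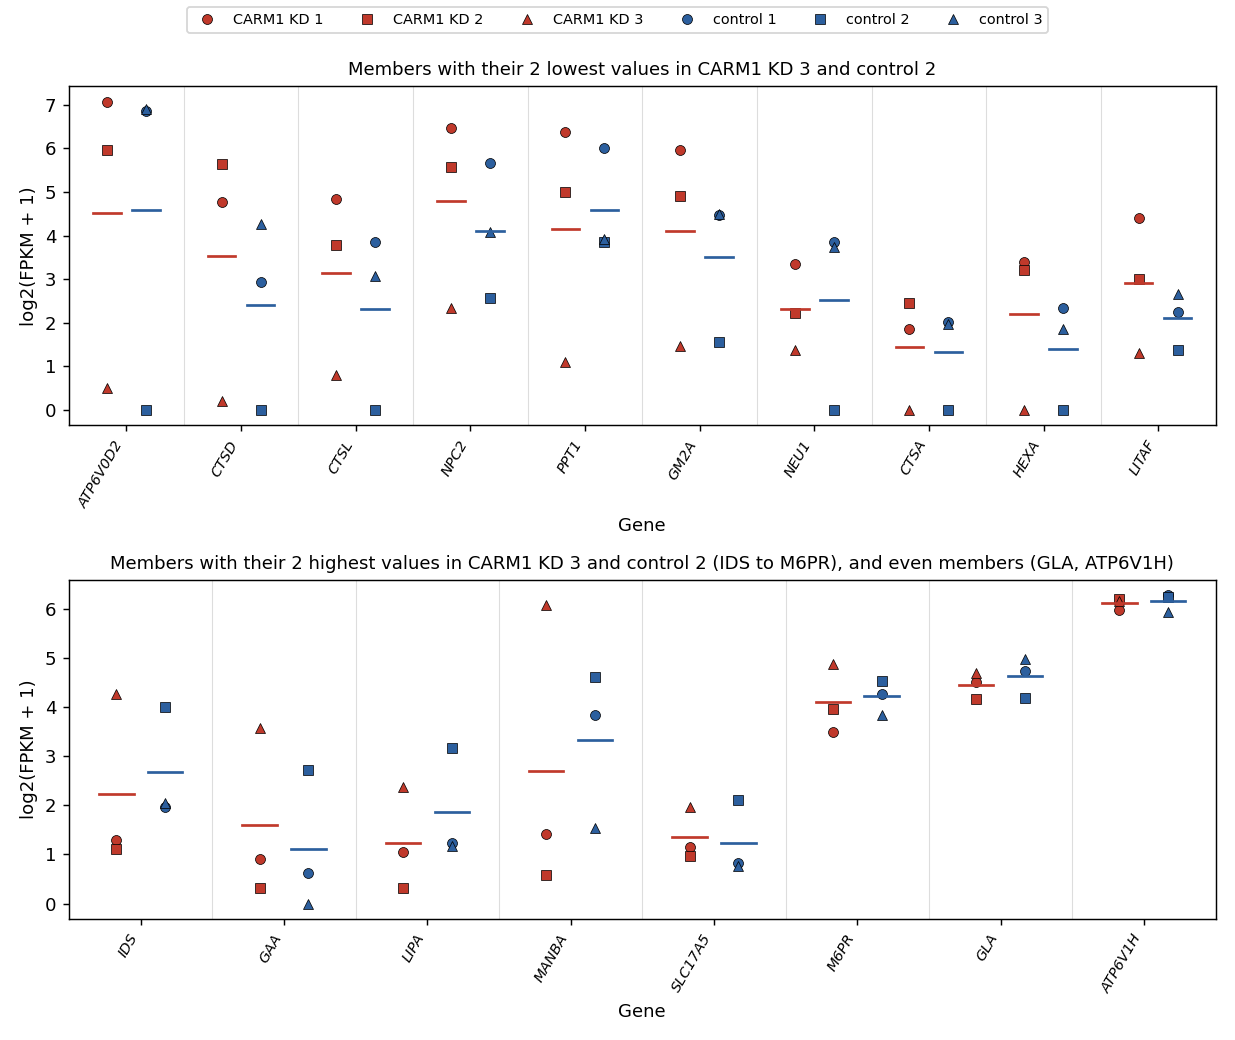
Levels as log2(FPKM + 1) of members chosen after their values were seen, in the 3 *CARM1* KD embryos (red) and the 3 control embryos (blue), with lines at the group means of log2 values. The upper genes had their 2 lowest values in *CARM1* KD 3 (red triangle) and control 2 (blue square) and *IDS* to *M6PR* below had their 2 highest values there, while *GLA* and *ATP6V1H* stayed within 1.79-fold and 1.27-fold.

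Among the 13 tested membrane proteins, 6 had a higher and 7 a lower mean FPKM in *CARM1* KD. *LAPTM4A*, a multispanning protein of late endosomes and lysosomes, was the most abundant at 246, 80.3 and 260 FPKM in *CARM1* KD and 139, 100 and 369 FPKM in control embryos. The tetraspanin *CD63*, found on late endosomes and exosomes, was at 180, 118 and 10.1 FPKM in *CARM1* KD and at 104, 85.2 and 126 FPKM in control embryos. It was therefore far lower in *CARM1* KD 3 than in any other embryo, control 2 included. The sialomucin *CD164* was highest in control 2, with 82.6, 35.2 and 102 FPKM in *CARM1* KD and 58.7, 182 and 135 FPKM in control embryos. *LAMP3*, named after its values were seen, was read in 3 embryos only, at 0, 8.62 and 0 FPKM in *CARM1* KD and at 0, 17.2 and 23.4 FPKM in control embryos.

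Transport of small molecules out of the lysosome was covered by 8 tested members, with a median log2 fold change of -0.23. *NPC2*, the soluble carrier that hands cholesterol on for export, was at 87.9, 46.3 and 4.04 FPKM in *CARM1* KD and at 49.9, 4.95 and 16.0 FPKM in control embryos, low in the unusual pair. The calcium channel *MCOLN1* varied less, at 6.42, 10.4 and 13.5 FPKM in *CARM1* KD and at 10.2, 5.38 and 11 FPKM in control embryos. *CLN3*, a membrane protein whose loss causes a juvenile storage disease in humans, was at 6.54, 7.53 and 10.2 FPKM in *CARM1* KD and at 8.11, 2.44 and 13.2 FPKM in control embryos.

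The route by which hydrolases reach the lysosome was covered by 6 tested members, with a median log2 fold change of 0.40. *M6PR*, the cation-dependent mannose 6-phosphate receptor, was at 10.1, 14.5 and 28.2 FPKM in *CARM1* KD and at 18.3, 22.1 and 13.3 FPKM in control embryos. *GNPTAB*, whose product adds the phosphate tag, was at 11.6, 9.70 and 11.1 FPKM in *CARM1* KD and at 11.7, 3.67 and 11.2 FPKM in control embryos. The other subunit gene of that enzyme, *GNPTG*, was at 17.5, 22.1 and 15.8 FPKM in *CARM1* KD and at 18.4, 0 and 16.2 FPKM in control embryos. Outside control 2, the genes of the tagging enzyme thus stayed within a narrow band in both groups.

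Coat and adaptor genes were the largest group, with 18 of 24 members tested, and their median log2 fold change was 0.25. The clathrin light chain *CLTA* was at 110, 131 and 114 FPKM in *CARM1* KD and at 90.1, 3.28 and 116 FPKM in control embryos. *AP3M1*, a subunit of the adaptor that sorts lysosomal membrane proteins, was at 9.13, 5.92 and 13.7 FPKM in *CARM1* KD and at 12, 17.7 and 11.3 FPKM in control embryos. *AP1B1*, of the adaptor that works between Golgi and endosomes, was at 10.9, 10.3 and 15.5 FPKM in *CARM1* KD and at 10.5, 12.2 and 6.34 FPKM in control embryos. Of the 15 members that varied by under 3-fold, 6 were adaptor genes of this group and 4 were V-ATPase genes.

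The 10 members with the smallest p-values were led by *LAPTM4B* (chromosome 4, 38932293 to 39015219), a membrane protein of late endosomes and lysosomes that regulates amino acid uptake and growth signalling. *LAPTM4B* was at 6.12, 5.28 and 10.7 FPKM in *CARM1* KD embryos and at 10.8, 26.7 and 16.0 FPKM in control embryos. It was the one member of 98 whose groups did not overlap with *CARM1* KD lower (1.02%), against 1.07% of all tested genes, and no member was without overlap with *CARM1* KD higher, against 3.82% of all tested genes. The separation was narrow, since the highest *CARM1* KD embryo and the lowest control embryo had nearly the same level. Its log2 fold change was -1.48 (SE 0.69), with an adjusted p of 1.0 in edgeR, and DESeq2 gave -1.65 with an adjusted p of 1.0. A single transcript accounted for all of its counts.

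Of the other 9 members, 7 had negative log2 fold changes, and edgeR gave all of them an adjusted p of 1.0. *HGSNAT*, the acetyltransferase of heparan sulfate breakdown, had 0.35, 0.21 and 1.21 FPKM in *CARM1* KD and 0.85, 2.65 and 1.36 FPKM in control embryos, with a log2 fold change of -1.77 (SE 1.02). *LGMN* had a log2 fold change of -1.30 (SE 0.78). The acid ceramidase *ASAH1* had 6.83, 0.86 and 3.78 FPKM in *CARM1* KD and 6.46, 21.9 and 2.04 FPKM in control embryos, with a log2 fold change of -1.58 (SE 1.14). The groups of all these genes except *LAPTM4B* overlapped, and control 2 had the highest value of *LAPTM4B*, *HGSNAT*, *LGMN* and *ASAH1*.

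The log2 fold change was -1.0 (SE 0.78) for *CD164* and -0.71 (SE 0.60) for *AP3M1*, both also highest in control 2. *LAMP2*, a major glycoprotein of the lysosomal membrane, had 6.15, 3.07 and 2.52 FPKM in *CARM1* KD and 10.1, 2.17 and 9.98 FPKM in control embryos, with a log2 fold change of -0.97 (SE 0.81). Its relative *LAMP1* had a positive log2 fold change, 1.37 (SE 1.22), with 2.61, 10.6 and 5.35 FPKM in *CARM1* KD and 4.59, 0.21 and 2.44 FPKM in control embryos. *LITAF*, which takes part in sorting to the lysosome, had a log2 fold change of 1.42 (SE 1.06), with 20.2, 7.05 and 1.47 FPKM in *CARM1* KD and 3.74, 1.61 and 5.35 FPKM in control embryos. Their groups overlapped, and none of these differences passed the spread between embryos in edgeR, whose adjusted p was 1.0 throughout.

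**Figure D5:**
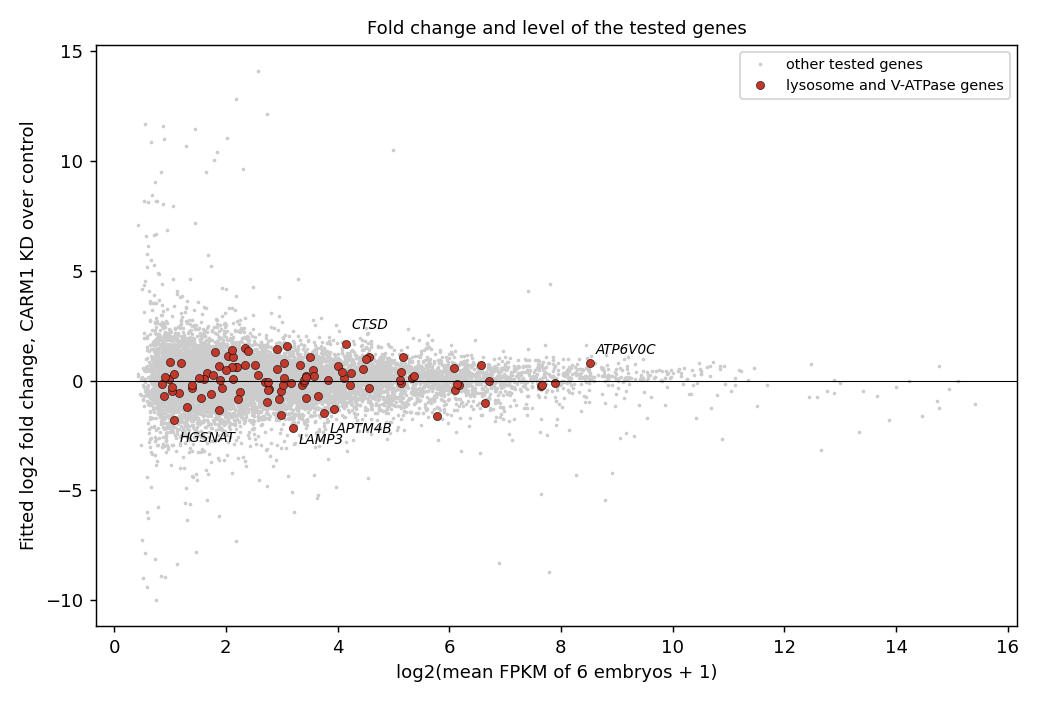
Fitted log2 fold change of *CARM1* KD over control (vertical axis) against log2 of the mean FPKM of the 6 embryos plus 1 (horizontal axis) for the 10639 tested genes, with the 98 lysosome and V-ATPase genes in red. The members lie around 0, with a median of 0.07, inside the cloud of the other genes, and none passed the adjusted threshold.

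In 3 members the unusual embryos also differed in the transcript that was counted. Among 59 tested members with at least 2 annotated transcripts, 30 had the same leading transcript in every embryo with at least 10 counts. Of 45 members that could be compared, 3 (6.67%) had one leading transcript in *CARM1* KD 3 and control 2 and another in the other 4 embryos, against 1.86% of all genes that could be compared. They were *PSAP*, the precursor of the saposins that activate sphingolipid hydrolases, the cysteine protease gene *CTSB*, and *LITAF*. For *PSAP*, the 14-exon transcript held 99.2%, 100% and 0% of counts in *CARM1* KD and 100%, 0% and 100% in control embryos. A 15-exon transcript took 100% in *CARM1* KD 3 and 78.5% in control 2.

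For *CTSB*, the 10-exon transcript held 98.0%, 99% and 0% of counts in *CARM1* KD and 96.1%, 0% and 99.4% in control embryos, and an 11-exon transcript took all counts of the unusual pair. Both *LITAF* transcripts have 4 exons, and the one that held 100%, 100% and 0% in *CARM1* KD and 99.2%, 0% and 100% in control embryos was replaced by the other. Such shares are estimates by the quantification program from short reads, and these 3 genes were named after their values were seen. *IDS* was not among them, because its 9-exon transcript led in control 1 and 3 as well as in the unusual pair.

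Lysosomal genes are switched on by the transcription factor TFEB, which is held in the cytosol by the kinase mTORC1 at the lysosomal surface. Of a wider list of 27 lysosome regulators and tethers that are not members, 26 were in the table and 22 were tested. None passed an adjusted or unadjusted p under 0.05 in edgeR, 13 had positive and 9 negative fitted log2 fold changes, and their median was 0.07. *LAMTOR5*, a subunit of the Ragulator scaffold, was at 222, 124 and 83.6 FPKM in *CARM1* KD embryos and at 168, 38.9 and 189 FPKM in control embryos. The Ragulator genes *LAMTOR4*, *LAMTOR2* and *LAMTOR3* also had their lowest control value in control 2, at 4.83, 0 and 1.83 FPKM. Controls 1 and 3 had 130 and 57.5 FPKM of *LAMTOR4*, 106 and 82.4 FPKM of *LAMTOR2*, and 39.3 and 90.1 FPKM of *LAMTOR3*. In *CARM1* KD embryos each of them was at 20.3 FPKM or more, and the groups overlapped. The Rag GTPase gene *RRAGA* did the reverse, with 37.3, 34.7 and 274 FPKM in *CARM1* KD and 77.3, 222 and 42.7 FPKM in control embryos.

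*FLCN*, folliculin, which acts on the Rag GTPases and through them on TFEB, was higher in every *CARM1* KD than in every control embryo, at 40.7, 57.4 and 47.6 FPKM in *CARM1* KD against 33.9, 36.9 and 36.9 FPKM in control. It was 1 of 4 tested genes of the list without overlap in that direction (18.2% of 22, where all tested genes gave 3.82%). The others were *LAMTOR1*, *VPS18* and *PIKFYVE*, which were named after their values were seen. Because the list was chosen with earlier results of these data known, its share is a description only and was not tested. The log2 fold change of *FLCN* was 0.34 (unadjusted p = 0.60 in edgeR). For *LAMTOR1*, *VPS18* and *PIKFYVE* it was 1.1, 1.28 and 1.48 (unadjusted p = 0.38, 0.46 and 0.40 in edgeR). In each of these 3, control 2 was near or at 0. *TFEB* itself was at 0.46, 5.39 and 1.71 FPKM in *CARM1* KD and at 1.0, 0 and 1.17 FPKM in control embryos, with overlapping groups.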

How the data were processed

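Single pig embryos, 3 *CARM1* KD and 3 control, 1 library each, were grouped by their labels. The authors deposited a gene and a transcript table with an estimated count and FPKM per library. The submitters' processing notes list the build GRCh38.p10, a human one, and the programs HISAT2, fastp, edgeR, StringTie, ChIPseeker and HOMER, whereas 122 members overlapped the RefSeq pig gene of the same name in Sscrofa11.1. The study's methods name Cufflinks. Columns of the authors' own comparison (fold changes and p-values) were not used. FPKM of 0.0001, written for a count of 0, was set to 0. The deposited counts are whole numbers and summed over transcripts to the gene count for all 24358 genes. Depth limits low genes most, and binomial or floor limits cover counting error only.

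Genes that reached an FPKM of 1 in 2 or more libraries were fitted with edgeR 4.0.16 in R 4.3.3 (TMM, quasi-likelihood test, residual df 4, Benjamini-Hochberg adjustment over 10639 genes). The standard error is the log2 fold change over the square root of F. On simulated data the test called changed genes at a spread far below that of these embryos, and none at a similar spread. Alternatives were DESeq2 1.42.0, limma 3.58.1 on log2(FPKM + 1) and log2(FPKM + 0.1), other scalings and filters, a replicate block and libraries left out. Paralog shares were compared with exact permutation tests (scipy 1.17.1). The members and all lists were chosen with earlier results of these data known. Named were all V-ATPase genes, the 3 most abundant tested members per role and the 10 members with the smallest p-values. Those 10 alone got fold changes among members tested with all embryos. Also named were members with no count in 1 group and at least 10 counts in 2 or more embryos of the other. The 6 most abundant genes of the list of regulators and tethers were named too. One gene that this rule names is not reported here. Others are marked as named after their values were seen. Of 10 members without a symbol, 8 were named from RefSeq. Promoter and protein sequences were not used here. Same-numbered embryos did not deviate together from their group means (correlations 0.27, -0.48 and -0.55). The highest correlation, 0.60, was that of *CARM1* KD 3 with control 2. With so few embryos these values cannot tell whether the numbers pair embryos by collection.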

Additional observations from a re-analysis of the deposited data

How the results depend on the processing

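No alternative called a member at an adjusted p under 0.05, leave-one-out included (0 to 0). The log2 fold changes of the 10 members named by p kept their direction in all 157 pairs of gene and alternative. These 10 were picked by p in the main fit and the alternatives reuse its embryos, so the kept direction is no independent check. The sizes of the fold changes did not hold when 1 embryo was left out: *ASAH1* was at -0.21 without control 2, *LITAF* at 0.26 without *CARM1* KD 1 and *LAMP1* at 0.47 without *CARM1* KD 2, while *LAPTM4B* ranged over -1.79 to -1.04. Without control 2 and *CARM1* KD 3 together, *ASAH1* was at -0.06. At an unadjusted p under 0.05, the count of lower members, 0 in edgeR with all embryos, was 2 with DESeq2 (1.01% of all tested genes), 1 with FPKM of at least 1 in all 6 libraries (*LAPTM4B*; 0.811%) and 0 to 1 when 1 embryo was left out (*LAMP3* without *CARM1* KD 2, 0.310%, and *MANBA* without *CARM1* KD 3, 0.780%). Higher members numbered 0 in each of those fits. Without control 2 and *CARM1* KD 3 together, 2 members were higher (*HEXA* with a log2 fold change of 1.5 and *CTSD* with 1.67) and 1 lower (*MANBA*, -2.69), against 0.968% and 0.846% of all tested genes, at an adjusted p of 1.0. Members whose groups did not overlap numbered 2 higher and 2 lower with no filter (3.17% and 1.22% of all genes), 2 to 12 higher and 2 to 8 lower when 1 embryo was left out (5.79% to 11.3% and 2.09% to 7.36%), and 14 higher and 18 lower without both embryos, where groups of 2 separate more often (12.4% and 14.2% of all tested genes). The median log2 fold change of the members was -0.12 to 0.44 when 1 embryo was left out. That of the members named ATP6V or ATP6AP was -0.13 to 0.74, and that of all tested genes 0.02 to 0.31. Each of these medians was highest without control 3. Scaling by total counts moved the median of all genes to 0.24, and limma gave 0.22 and 0.34, against 0.10 with TMM. A replicate block also called 0 members. Its count of all genes at an unadjusted p under 0.05 was 16, against 73 without the block. Whether the numbers pair the embryos is not known. The cause of these shifts was not tested. A common coefficient of variation of 1.12 limits what 3 embryos per group can show, and low members at 0 in control 2 rest on few counts.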

Other observations

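Transcript shares of *ATP6V1C1*, a V-ATPase stalk gene chosen after its values were seen, overlapped between the groups. One of its 13-exon transcripts held 71.9%, 61.0% and 42.1% of counts in *CARM1* KD embryos and 73.2%, 51.5% and 48.0% in control embryos, and another held nearly all the rest. These shares were not tested.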
